A study of Mus musculus with 24 samples.

Results

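The genes described here are 35 genes of microglial identity, complement C1q and MHC class I, chosen by name, as a family of known roles, from the 46983 genes of the deposited count table. They comprise 32 microglial genes, among them the 3 chains of C1q, and 3 genes of MHC class I (B2m, H2-K1 and H2-D1). Each of the 35 symbols was found in the table. A gene was tested where some group had 10 or more counts in all of its 6 mice, a filter that 16209 genes and all 35 members passed. The symbol Itgam stood on 2 rows, and the row with the identifier ENSMUSG00000030786 was used.

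Bulk mRNA was sequenced from hippocampal punches of 24 female C57BL/6 mice, 1 mm wide and taken from dorsal and ventral hippocampus. There were 4 groups of 6 mice. Every mouse carried loxP-flanked Fkbp5 alleles. Fkbp5 lox/lox mice had no Cre recombinase and served as littermate wild types, whereas in Fkbp5 Nex mice Cre from the Nex (Neurod6) locus removed Fkbp5 from glutamatergic forebrain neurons, the dentate gyrus excepted, from embryonic life onwards. Microglia lie outside that deletion. Litters were not labelled, and each mouse was taken as 1 sample. In each genotype 6 mice were reared under early life stress (ELS), that is with limited bedding and nesting material from postnatal day 2 to 9, and 6 under control conditions, and their behaviour was tested from 6 months of age before the tissue was taken. The question was how ELS and the loss of the stress-response chaperone FKBP51 in neurons bear on the adult hippocampus, here read in the genes of its resident immune cells.

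Microglia are the macrophages of the brain parenchyma. They depend on colony-stimulating factor signalling through CSF1R, are built by the transcription factors PU.1 (Spi1), IRF8 and SALL1, sense nucleotides and fractalkine with P2Y receptors and CX3CR1, and clear debris with receptors that signal through the adaptor TYROBP. They are the main source of C1q in the brain, the molecule that starts the classical complement pathway and tags synapses for removal. MHC class I, a heavy chain such as H2-K or H2-D paired with beta-2-microglobulin, presents peptides on most cells, is induced by interferons and also occurs on neurons.

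Promoter sequences of 26 of the 35 genes were found in RefSeq (GRCm38.p6), and those shown are from genes whose levels are described further on. The H2-K1 sequence lies at chr17:34000348-34000597 on the minus strand and runs from 250 bases before the gene's start to its first upstream base, for 1 of the 2 starts that the table lists. The capitals mark the palindromic NF-kappaB site of class I promoters, searched as the letters GGGGA followed, after any 1 base, by their reverse complement, and found at positions -111 to -101 from the start.
H2-K1: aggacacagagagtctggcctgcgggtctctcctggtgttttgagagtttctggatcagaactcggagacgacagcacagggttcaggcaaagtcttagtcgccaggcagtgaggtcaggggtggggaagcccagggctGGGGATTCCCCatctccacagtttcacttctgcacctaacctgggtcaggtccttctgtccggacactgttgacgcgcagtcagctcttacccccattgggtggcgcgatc
The same site stood in H2-D1 at positions -171 to -161, shown with its flanks from chr17:35262913-35262942 on the plus strand beside the matching 30 bases of H2-K1.
H2-D1: gcccagggctGGGGATTCCCCatctcctca
H2-K1 around the site: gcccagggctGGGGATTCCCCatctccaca
This exact pattern, which reads alike on both strands, occurred in 15 of 32851 promoters of 250 bases (0.0457%). It occurred in no other of the 26 members with a promoter sequence. The 2 promoters aligned over 177 columns with 91.0% identity. In GENCODE vM21, H2-D1 begins at 35262730, before the RefSeq start used here. All 250 bases of its window lie in annotated exons there. The longest coding transcripts of the 2 genes (GENCODE vM21) were 88.2% identical over 1510 aligned columns, so reads may be split between H2-K1 and H2-D1 and their separate counts are less certain than their sum. Of B2m, 240 bases are shown, from chr2:122147437-122147676 on the plus strand, with capitals at the core of an interferon-stimulated response element, searched on both strands as GAAA followed, after any 2 bases, by GAAA, at positions -139 to -130.
B2m: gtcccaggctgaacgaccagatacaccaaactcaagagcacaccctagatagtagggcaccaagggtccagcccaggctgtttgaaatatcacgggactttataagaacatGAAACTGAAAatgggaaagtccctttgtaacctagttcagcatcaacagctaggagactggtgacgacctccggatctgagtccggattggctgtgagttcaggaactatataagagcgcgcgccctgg
That core was present in 978 of the 32851 promoters (2.98%) and in 3 of the 26 members, Aif1, B2m and Ctss. The sequences of C1qb (chr4:136886201-136886450, minus strand) and Trem2 (chr17:48346151-48346400, plus strand) carry in capitals GAGGAA, the core of PU.1 sites, at -30 to -25 in C1qb and, as TTCCTC, at -40 to -35 in Trem2.
C1qb: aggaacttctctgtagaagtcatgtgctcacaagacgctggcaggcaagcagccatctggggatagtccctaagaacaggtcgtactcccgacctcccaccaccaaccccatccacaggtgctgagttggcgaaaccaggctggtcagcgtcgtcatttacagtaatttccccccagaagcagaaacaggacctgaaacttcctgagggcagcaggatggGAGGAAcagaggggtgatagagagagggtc
Trem2: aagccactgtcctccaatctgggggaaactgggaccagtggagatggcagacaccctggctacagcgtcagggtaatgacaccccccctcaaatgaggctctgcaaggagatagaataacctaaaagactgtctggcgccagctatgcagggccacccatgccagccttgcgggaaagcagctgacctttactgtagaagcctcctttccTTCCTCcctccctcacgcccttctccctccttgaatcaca
GAGGAA is short and common, with matches in 7639 promoters (23.3%) and in 14 of the 26 members. A match is a description of these letters and not evidence of binding. Variants of the 3 patterns were not searched, so a promoter without a match may still hold a site of that kind.

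Total counts ranged from 18347283 to 26555623 per mouse. Fkbp5 itself had 1078 to 1602 reads in the 12 Fkbp5 lox/lox mice and 169 to 582 in the 12 Fkbp5 Nex mice, so every genotype label fitted the deleted gene. Hippocampal neuron genes were present in every mouse, with a summed level of 1593 to 2746 CPM (counts scaled to library size with edgeR's TMM method, as for every CPM value here) for 10 pyramidal neuron genes and 406.5 to 1656 CPM for 10 dentate granule neuron genes, whereas blood cell genes were scarce, with 10 of 18 listed leukocyte and erythrocyte genes under 10 counts in every mouse. Levels of genes of neighbouring tissue and of astrocytes varied between mice. The summed level of 10 choroid plexus genes ran from 22.4 to 4797 CPM, with its highest value in Fkbp5 lox/lox control mouse 74, and that of 10 astrocyte genes from 4156 to 9126 CPM, with its highest value in Fkbp5 Nex control mouse 12. That of 10 thalamus genes ran from 180.8 to 576.1 CPM.

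Per length, B2m was the most abundant member, with a median of 92.3 RPKM (TMM CPM divided by the kilobases of exon) over the 24 mice and a range of 77.2 to 151.8. Cathepsin S (Ctss), an endosomal protease of antigen processing, followed with 45.1 RPKM (34.9 to 71.8). Of the C1q chains, C1qa had a median of 40.9 RPKM, C1qb 39.0 and C1qc 17.95, with overlapping ranges between neighbours. Before division by exon length (1040, 1088 and 1931 bases) their medians were closer, at 42.5, 42.4 and 34.7 CPM. Their genes lie side by side on the minus strand of chromosome 4 of GRCm38, C1qb from 136880129 to 136886187, C1qc from 136889804 to 136893065 and C1qa from 136895917 to 136898803. The adaptor Tyrobp (15.9 RPKM), the nucleotide receptor P2ry12 (15.5) and Csf1r (13.8) came next. At the lower end stood the transcription factors Spi1 (1.29) and Irf8 (0.771), the endotoxin co-receptor Cd14 (1.10), the mannose receptor Mrc1 (0.429) and the phosphatase Ptprc, or CD45 (0.246).

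**Figure D1:**
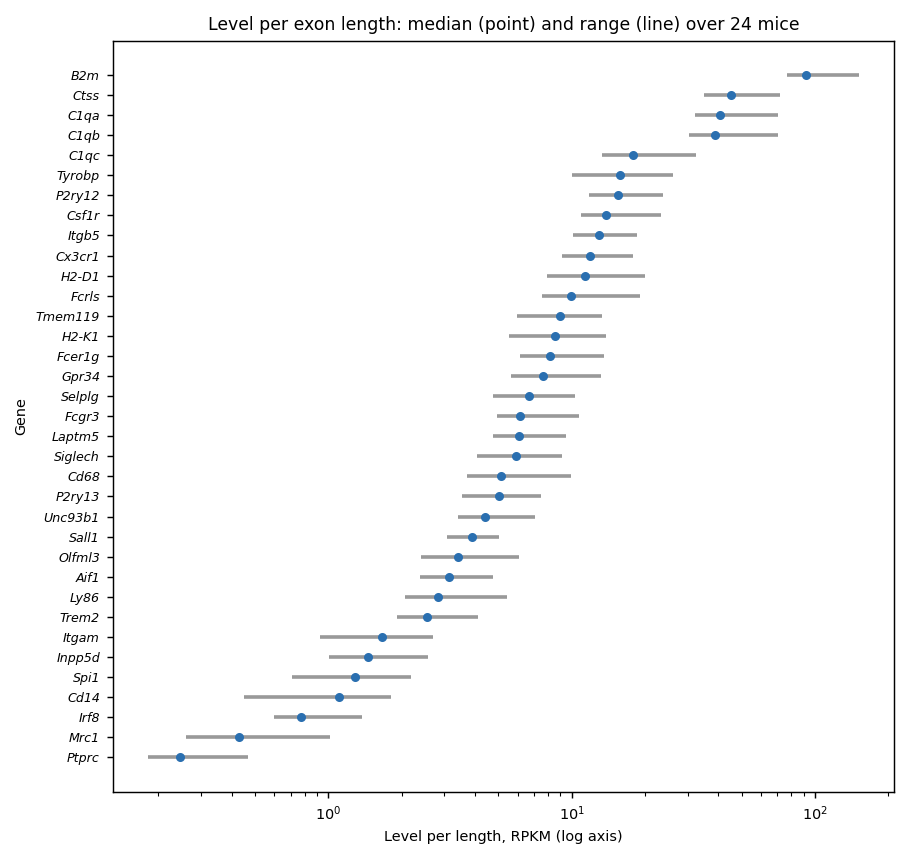
Level per exon length of the 35 genes in RPKM on a logarithmic axis, with the median (point) and the lowest to highest value (line) over 24 mice. Genes are ordered by their median, from Ptprc (0.246) to B2m (92.3), and only the lines of B2m and Ctss, among neighbours in the order, are apart.

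In 33 of 34 neighbouring pairs the ranges over the mice overlapped, and the exception was B2m above Ctss. All genes were measured in the same mice, so overlap of these ranges does not show that an order is unresolved. In every mouse C1qb, for example, was above C1qc, although their ranges overlapped. For the other overlapping pairs the order within a mouse was not tested. The exon length used is the union of all annotated transcripts, which for Ptprc (18313 bases), Irf8 (7055) and Olfml3 (6161) is long and lowers the value per length, as it does for C1qc against the other C1q chains. Itgam, the complement receptor chain CD11b, is a further uncertain value, because 68.7% of its exon bases are also annotated to an overlapping gene on the same strand and shared reads may not have been counted. Of Csf1r exon bases 15.1% lie opposite another gene, and the counting strand is not given in the sources used here. For 31 members no exon base overlapped another gene.

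The microglial genes varied together from mouse to mouse. Summed over the 32 genes, the level had a median of 698.0 CPM and a range from 562.2 in Fkbp5 Nex ELS mouse 10 to 1134 in Fkbp5 Nex control mouse 12. Mouse 12 had the highest value of all 24 mice in 26 of the 32 genes, and its median offset from the gene medians was 0.71 on the log2 scale. Fkbp5 Nex control mouse 42 stood at the other end, lowest of all in 12 of the 32 genes with a median offset of -0.34, and mouse 10 was lowest in 7 (-0.30). The same group of Fkbp5 Nex controls therefore held the highest and nearly the lowest mouse.

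**Figure D2:**
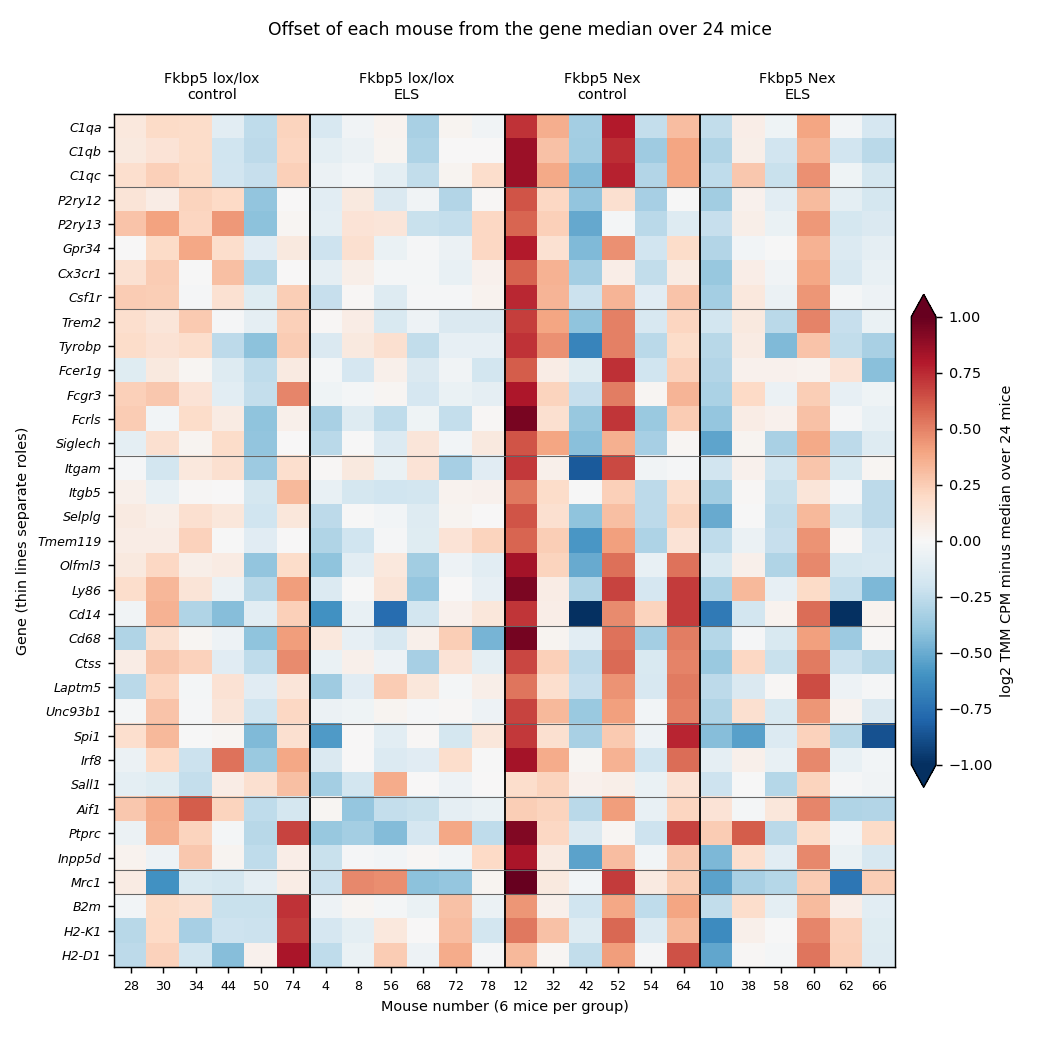
Each cell is the log2 TMM CPM of 1 gene in 1 mouse minus that gene's median over the 24 mice, with mice in columns by group and genes in rows by role. Fkbp5 Nex control mouse 12 is high in nearly every microglial row (26 of 32 highest of all mice), mice 42 and 50 are low, and Fkbp5 lox/lox control mouse 74 is high in the 3 bottom rows of MHC class I.

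In a bulk sample, fewer microglia and less RNA per microglial cell cannot be told apart. Correlations were taken on log2 levels of the 24 mice after each group's mean was subtracted, so they describe variation within groups. Selplg, the P-selectin ligand, followed the mean of the other microglial genes most closely (Pearson r = 0.973, Spearman rho = 0.917). Without the 2 mice in which that mean lay furthest from its median, r was 0.954. Over the microglial genes the median r was 0.886 and the median rho 0.747. Without 2 mice chosen in the same way for each gene, the median r was 0.807. Sall1, which in brain specifies microglia among macrophages, followed the mean of the other microglial genes least (r = 0.317). It had the smallest spread of all members (coefficient of variation 12.8%). Mrc1 (r = 0.564), Aif1 (0.557) and Ptprc (0.587) were also looser. These points share library and depth, and the correlations are descriptions only. Mouse 12 was also highest in the summed level of 30 further microglial genes (1199 CPM, median over mice 881.6), of 12 border macrophage genes, of MHC class II (28.9, median 18.8), of endothelial genes (364.6, median 258.4) and of astrocyte genes, and second in dentate granule neuron genes (1270, median 614.6). It ranked 22nd of 24 in oligodendrocyte genes (1656, median 3508) and 23rd in pyramidal neuron genes (1605, median 2259). The part of tissue composition in the microglial values of this mouse was not tested.

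The spread between mice differed by group. The coefficient of variation of a member was on median 27.8% among the Fkbp5 Nex controls, 20.4% among Fkbp5 Nex ELS mice, 14.3% among Fkbp5 lox/lox controls and 10.3% among Fkbp5 lox/lox ELS mice. Of the 35 genes, 27 were most variable among the Fkbp5 Nex controls and 29 least variable among the Fkbp5 lox/lox ELS mice. Since the genes move together, this is the record of a few mice rather than of 35 separate genes, and the difference in spread was not tested. Within groups the end positions belonged to few mice. Mouse 50 was lowest in 29 genes among the Fkbp5 lox/lox controls, mouse 42 in 26 and mouse 12 highest in 28 among the Fkbp5 Nex controls, and mouse 60 highest in 32 among the Fkbp5 Nex ELS mice.

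In none of the 7 comparisons did a member pass a false discovery rate (FDR) of 0.02 in the quasi-likelihood test of edgeR, adjusted after Benjamini and Hochberg over all tested genes. The model held a mean for each group and 5 surrogate variables, which are estimated sources of variation between mice. For genotype, averaged over rearing, 0 of 35 members were called against 22 of 16209 genes (0.136%), and 4 members had an unadjusted p under 0.05 against 11.4% of all genes. For ELS, averaged over genotype, 0 of 35 members and 0.0% of all genes were called, and 2 members had an unadjusted p under 0.05 against 3.53% of all genes. DESeq2's Wald test also called 0 members in each of the 7 comparisons. It called 0.407% of all genes for genotype and 0.0% for ELS, and its unadjusted p was under 0.05 for 4 members in the genotype comparison (10.2% of all genes) and for 2 in the ELS comparison (2.77%). The number of members at an unadjusted p under 0.05 moved with the filter. For genotype it was 7 with filterByExpr (12.5% of all genes), 12 without a filter (10.4%) and 0 without surrogate variables (6.63%), and for ELS 4 with filterByExpr (3.97%) and 7 without a filter (5.45%). The ranges of all 35 members overlapped in the 4 pairwise comparisons of groups, as did those of nearly all genes. Ranges lay apart for 0.0925% of all genes for ELS in Fkbp5 lox/lox mice, 0.0679% for ELS in Fkbp5 Nex mice, 0.16% for genotype in controls and 0.173% for genotype after ELS.

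Although no gene was called, the signs were uneven. In the genotype comparison (Fkbp5 Nex minus Fkbp5 lox/lox) 32 of 35 members had a positive log2 fold change and the median was 0.10, whereas 48.99% of all tested genes were higher and their median was -0.002. In the ELS comparison 31 of 35 were lower after ELS, with a median of -0.06, against 48.07% of all genes and a median of 0.003. The members share their mice and vary together, so these shares do not count as separate observations. For genotype the direction turned when 1 animal was left out. Without Fkbp5 Nex control mouse 52, 26 of 35 members were lower in Fkbp5 Nex mice and the median was -0.06, although without surrogate variables the median stayed between 0.05 and 0.16 whichever mouse was left out. For ELS the median stayed negative whichever mouse was left out. It came nearest to turning without Fkbp5 Nex control mouse 64, with 16 members higher and a median of -0.02.

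**Figure D3:**
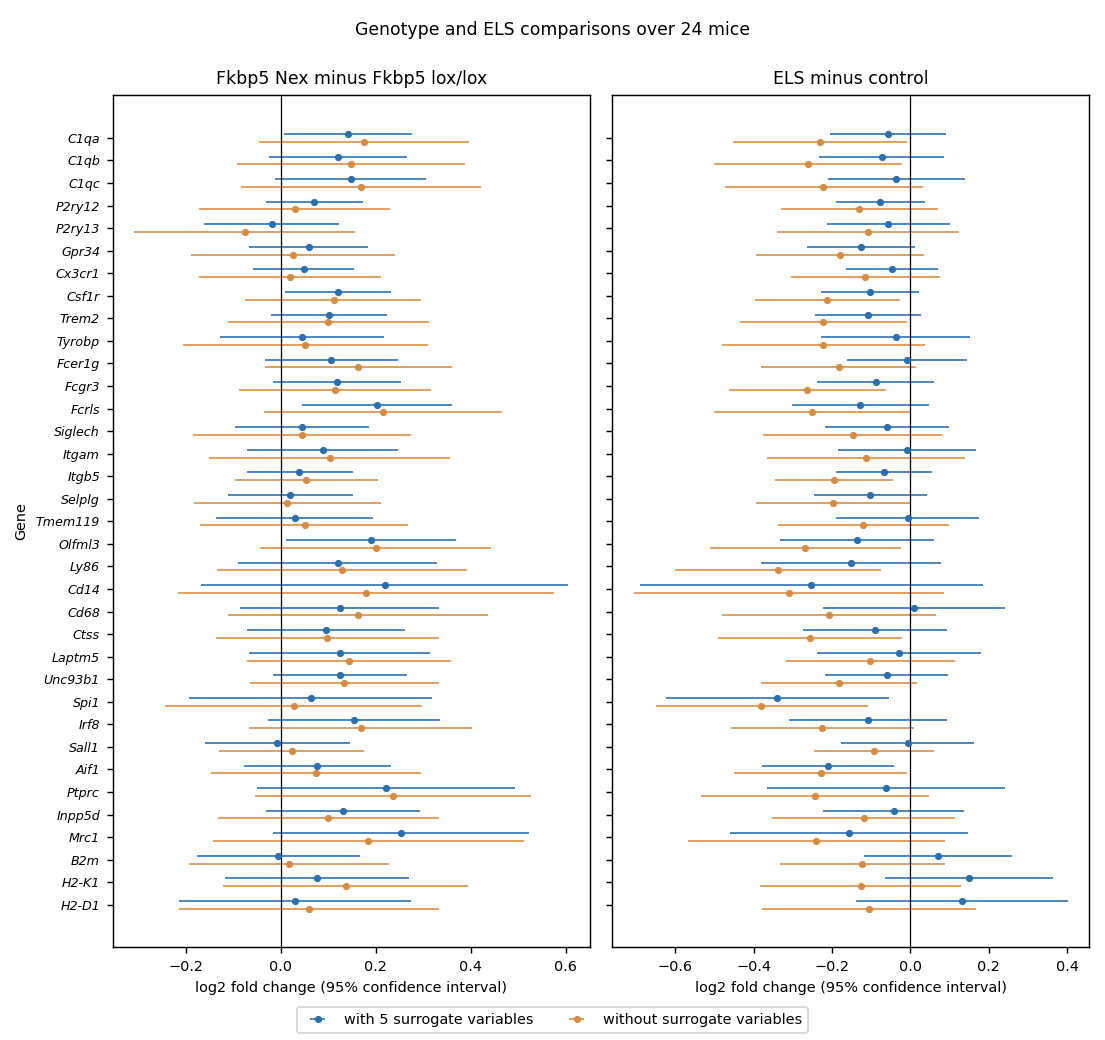
Log2 fold changes of the 35 genes for genotype (left) and ELS (right) over 24 mice, with 95% confidence intervals, from the model with 5 surrogate variables (blue) and from the same model without them (orange). Most blue points lie right of 0 for genotype (32 of 35) and left of 0 for ELS (31 of 35), and without surrogate variables all 35 lie left of 0 for ELS.

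The 3 chains of C1q varied almost as a unit. C1qb in Fkbp5 lox/lox mice ran from 35.5 (lowest) through 46.0 (median) to 49.2 CPM (highest) in controls and from 34.3 through 41.6 to 43.2 CPM after ELS. C1qb in Fkbp5 Nex mice ran from 33.1 through 53.8 to 76.9 CPM in controls and from 34.5 through 37.2 to 53.9 CPM after ELS. The Fkbp5 Nex controls spanned the whole range of the other groups and beyond, with mice 42 and 54 at the bottom and mice 12 and 52 on top. C1qa had the same shape, with 33.5 to 73.5 CPM in the Fkbp5 Nex controls and 35.5 to 49.6 CPM in the Fkbp5 lox/lox controls. For genotype, the log2 fold change was 0.14 for C1qa (SE 0.07, adjusted p = 0.413), 0.12 for C1qb (SE 0.07, adjusted p = 0.521) and 0.15 for C1qc (SE 0.08, adjusted p = 0.475) in edgeR. For ELS the values were nearer to 0, at -0.06 for C1qa (95% confidence interval -0.20 to 0.09), -0.07 for C1qb (-0.23 to 0.09) and -0.04 for C1qc (-0.21 to 0.14). Without mouse 52 the genotype value of C1qa was -0.01.

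Among the surface receptors for soluble cues, Csf1r, the receptor on which microglial survival depends, had the highest mean CPM of the set (85.7). Csf1r in Fkbp5 lox/lox mice ran from 73.4 through 91.7 to 95.1 CPM in controls and from 68.2 through 79.3 to 81.9 CPM after ELS. Csf1r in Fkbp5 Nex mice ran from 69.0 through 99.4 to 134.8 CPM in controls and from 63.1 through 78.2 to 108.6 CPM after ELS. Medians were lower after ELS in both genotypes, but the groups overlapped, with mouse 50 the low wild type control and mouse 60 the high Fkbp5 Nex mouse after ELS. The log2 fold change was 0.12 for genotype (SE 0.05, adjusted p = 0.408 in edgeR) and -0.10 for ELS (SE 0.06, adjusted p = 0.9985). The genotype value became -0.01 without mouse 52.

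P2ry12, the ADP receptor that guides microglial processes, ran from 30.0 through 42.3 to 46.0 CPM in Fkbp5 lox/lox controls and from 32.1 through 37.5 to 42.1 CPM in that genotype after ELS. P2ry12 in Fkbp5 Nex mice ran from 29.9 through 41.7 to 60.8 CPM in controls and from 31.0 through 36.7 to 48.9 CPM after ELS. Its low ends were alike in all groups and mouse 12 stood alone at the top. P2ry12 had a log2 fold change of 0.07 (SE 0.05, adjusted p = 0.610 in edgeR) for genotype and -0.08 (SE 0.05, adjusted p = 0.9985) for ELS, and the surrogate variables took 82.9% of its within-group variance, the most of any member. Gpr34, a lysophosphatidylserine receptor, had one of the smallest p values for ELS within Fkbp5 lox/lox mice, with medians of 17.52 CPM in controls and 15.5 CPM after ELS and a log2 fold change of -0.16 (SE 0.09, adjusted p = 0.938 in edgeR). Cx3cr1, the fractalkine receptor, and P2ry13, a second ADP receptor, had 0.05 and -0.02 for genotype and -0.05 and -0.06 for ELS.

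Of the immunoreceptors and their adaptors, Fcrls, a microglia-enriched Fc receptor-like gene of the mouse, had the smallest p for genotype of all members. Fcrls in Fkbp5 lox/lox mice ran from 17.6 through 24.3 to 27.7 CPM in controls and from 18.6 through 20.4 to 23.4 CPM after ELS. Fcrls in Fkbp5 Nex mice ran from 17.9 through 26.9 to 44.7 CPM in controls and from 17.7 through 23.5 to 28.4 CPM after ELS. The lower ends were alike and the upper ends differed, with mouse 12 (44.7 CPM) and mouse 52 (38.2 CPM) apart from all others. The log2 fold change was 0.20 for genotype (SE 0.08, unadjusted p = 0.0143, adjusted p = 0.297) and 0.25 for genotype after ELS (SE 0.11, adjusted p = 0.775) in edgeR, and 0.06 for genotype without mouse 52.

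Trem2, a lipid-sensing receptor that signals through TYROBP, ran from 11.8 through 13.9 to 15.0 CPM in Fkbp5 lox/lox controls and stayed between 11.3 and 13.2 CPM in that genotype after ELS. Trem2 in Fkbp5 Nex mice ran from 9.48 through 15.5 to 20.3 CPM in controls and from 10.4 through 11.5 to 17.7 CPM after ELS. The 2 ends of the range were again mice 42 and 12. Trem2 had a log2 fold change of 0.10 (SE 0.06, adjusted p = 0.522 in edgeR) for genotype and -0.11 (SE 0.06, adjusted p = 0.9985) for ELS. The other immunoreceptor genes, Tyrobp, Fcer1g, Fcgr3 and Siglech, lay between 0.04 (Siglech) and 0.12 (Fcgr3) for genotype and between -0.09 (Fcgr3) and -0.01 (Fcer1g) for ELS.

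Adhesion molecules and secreted proteins include several genes by which microglia are recognised. Tmem119, a membrane protein used to tell microglia from blood-derived macrophages, ran from 19.1 through 21.2 to 24.2 CPM in Fkbp5 lox/lox controls and from 16.8 through 19.8 to 24.1 CPM in that genotype after ELS. Tmem119 in Fkbp5 Nex mice ran from 13.8 through 23.6 to 31.0 CPM in controls and from 17.3 through 19.1 to 28.1 CPM after ELS. Every other group lay within the span of the Fkbp5 Nex controls. Its log2 fold changes were 0.03 (SE 0.08, adjusted p = 0.921 in edgeR) for genotype and -0.01 (SE 0.09, adjusted p = 0.9985) for ELS. Itgb5, an integrin subunit that other cells of the brain also make, had 0.04 (SE 0.05, adjusted p = 0.819) and -0.07 (SE 0.06, adjusted p = 0.9985), at levels between 36.1 CPM in mouse 10 and 66.1 CPM in mouse 12. Olfml3, a secreted matrix protein, was among the 4 genes under an unadjusted p of 0.05 for genotype, with 0.19 (SE 0.09, adjusted p = 0.411). Selplg had 0.02 for genotype and -0.10 for ELS, Itgam 0.09 and -0.01, and Ly86, a partner of a Toll-like receptor homologue, 0.12 and -0.15. Cd14 had the fewest reads, from 16 to 69 per mouse, and the widest ratio between its highest and lowest mouse (4.03), so that its values (0.22 and -0.25) are the least certain.

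Of the lysosomal and endosomal genes, Unc93b1, which carries nucleic acid-sensing Toll-like receptors to endosomes, had one of the 2 smallest p values for genotype in controls. Unc93b1 ran from 11.7 through 13.9 to 16.3 CPM in the Fkbp5 lox/lox controls and from 10.4 through 17.3 to 21.4 CPM in the Fkbp5 Nex controls. The Fkbp5 Nex controls lay on both sides of the wild types. The log2 fold change was 0.20 (SE 0.10, adjusted p = 0.563 in edgeR), and without mouse 52 it was -0.06. Ctss, the lysosomal membrane protein Laptm5 and the macrophage sialomucin Cd68 had 0.09, 0.12 and 0.12 for genotype and -0.09, -0.03 and 0.01 for ELS.

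Of the transcription factors, Spi1, which encodes PU.1, in Fkbp5 lox/lox mice ran from 2.57 through 3.70 to 4.35 CPM in controls and from 2.35 through 3.35 to 3.77 CPM after ELS. Spi1 in Fkbp5 Nex mice ran from 2.78 through 4.02 to 5.90 CPM in controls and from 1.90 through 2.73 to 4.08 CPM after ELS. Mice 12 and 64 were the high Fkbp5 Nex controls, mouse 60 was the highest Fkbp5 Nex mouse after ELS, and the groups overlapped. Spi1 had the lowest fold change of any member for ELS in Fkbp5 Nex mice, -0.56 (SE 0.19, unadjusted p = 0.00618, adjusted p = 0.9995 in edgeR), and -0.34 (SE 0.14, adjusted p = 0.9985) for ELS over both genotypes. The difference of the ELS effect between genotypes (Fkbp5 lox/lox minus Fkbp5 Nex) was 0.44 (SE 0.26, unadjusted p = 0.101, adjusted p = 0.9994 in edgeR). Without Fkbp5 Nex control mouse 64 the value in Fkbp5 Nex mice was -0.33. From 37 to 125 reads per mouse stood behind these values.

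Sall1 had the narrowest spread. Sall1 in Fkbp5 lox/lox mice ran from 17.3 through 20.4 to 25.2 CPM in controls and from 16.2 through 20.1 to 26.6 CPM after ELS. Sall1 in Fkbp5 Nex mice ran from 19.6 through 22.1 to 23.9 CPM in controls and from 16.8 through 20.2 to 23.9 CPM after ELS. Mice 12 and 42 did not stand out in it. Sall1 had a log2 fold change of -0.01 (SE 0.07, adjusted p = 0.985 in edgeR) for genotype, which turned to 0.02 without surrogate variables, and -0.01 (SE 0.08, adjusted p = 0.9985) for ELS. Irf8 had 0.15 for genotype and -0.11 for ELS.

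Aif1, the actin-binding protein IBA1 by which microglia are stained, had the smallest p for ELS. Aif1 in Fkbp5 lox/lox mice ran from 4.03 through 5.67 to 7.29 CPM in controls and from 3.66 through 4.30 to 4.86 CPM after ELS. Aif1 in Fkbp5 Nex mice ran from 3.97 through 5.57 to 6.40 CPM in controls and from 3.89 through 4.95 to 6.73 CPM after ELS. Of the 6 Fkbp5 lox/lox controls, 4 were above all ELS mice of their genotype, and mice 50 and 74 lay among them. The log2 fold change for ELS was -0.21 (SE 0.08, unadjusted p = 0.0163, adjusted p = 0.9985 in edgeR), and in Fkbp5 lox/lox mice -0.27 (SE 0.11, adjusted p = 0.938). It stayed between -0.24 and -0.17 for ELS whichever mouse was left out. Ptprc, which all leukocytes carry, had 0.32 (SE 0.20, adjusted p = 0.824 in edgeR) for genotype after ELS, with medians of 3.66 CPM in Fkbp5 lox/lox and 5.12 CPM in Fkbp5 Nex mice. Inpp5d, the phosphatase SHIP1 that dampens immunoreceptor signals, had 0.13 for genotype and -0.04 for ELS.

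Mrc1, the mannose receptor of macrophages at the borders of the brain rather than of parenchymal microglia, gave the largest fold change of the set for genotype in controls. Mrc1 in Fkbp5 lox/lox mice ran from 1.80 through 2.51 to 2.89 CPM in controls and from 2.05 through 2.57 to 3.81 CPM after ELS. Mrc1 in Fkbp5 Nex mice ran from 2.68 through 3.08 to 6.46 CPM in controls and from 1.65 through 2.21 to 3.26 CPM after ELS. Mouse 12 had 6.46 and mouse 52 4.43 CPM, and the other 4 Fkbp5 Nex controls lay between 2.68 and 3.24 CPM. All 6 were above the median of the wild type controls (2.51 CPM), and the 2 ranges overlapped between 2.68 and 2.89 CPM. The log2 fold change was 0.44 (SE 0.18, unadjusted p = 0.0236, adjusted p = 0.497 in edgeR) for genotype in controls and -0.35 (SE 0.20, adjusted p = 0.9995) for ELS in Fkbp5 Nex mice. The genotype value in controls was 0.18 without mouse 52. With all mice but without surrogate variables it was 0.60 (SE 0.22, unadjusted p = 0.0129, adjusted p = 0.992 in edgeR). The difference between genotypes in the ELS effect was 0.39 (SE 0.28, unadjusted p = 0.176, adjusted p = 0.9994), and 0.83 (SE 0.32, unadjusted p = 0.0154, adjusted p = 1.0 in edgeR) without surrogate variables. Over all mice, Mrc1 had 0.25 (SE 0.13, adjusted p = 0.470) for genotype and -0.16 (SE 0.15, adjusted p = 0.9985) for ELS. Of 12 border macrophage genes, 5 passed the filter, and the median of their summed level was 43.8 CPM in controls of the Fkbp5 Nex genotype and 41.3 CPM in wild type controls, with mouse 12 the highest of all. Their part in the Mrc1 values was not tested.

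**Figure D4:**
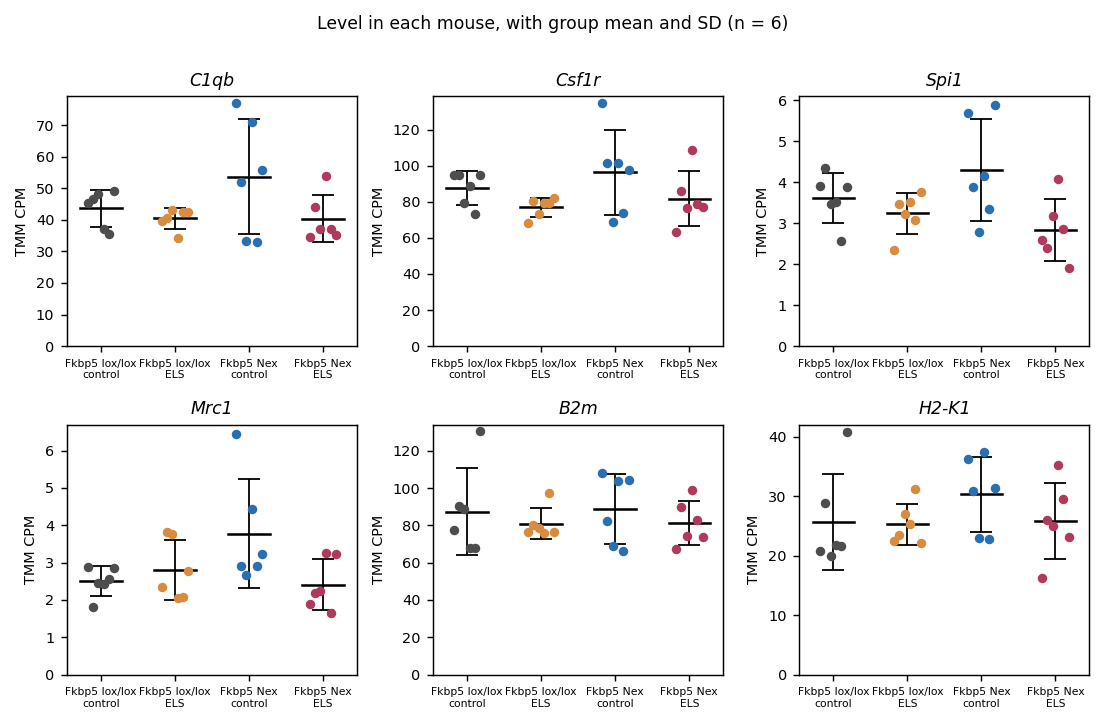
TMM CPM in each mouse (points) with the group mean (bar) and SD (whiskers, n = 6) for 6 genes in the 4 groups, each axis starting at 0. The points of all 4 groups overlap in every panel, with the widest scatter of C1qb and Csf1r among the Fkbp5 Nex controls and 1 high Fkbp5 lox/lox control (mouse 74) for B2m (130.6) and H2-K1 (40.8).

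MHC class I shared part of the pattern of the microglial genes, but its highest mouse was another. With group means subtracted, Pearson r with the microglial mean over 24 mice was 0.583 for H2-D1, 0.695 for H2-K1 and 0.776 for B2m. B2m in Fkbp5 lox/lox mice ran from 67.9 through 83.2 to 130.6 CPM in controls and from 75.7 through 77.5 to 97.3 CPM after ELS. B2m in Fkbp5 Nex mice ran from 66.4 through 93.2 to 107.8 CPM in controls and from 67.1 through 78.6 to 99.0 CPM after ELS. A single Fkbp5 lox/lox control set the upper end, and below it the groups overlapped throughout. H2-K1 in Fkbp5 lox/lox mice ran from 19.99 through 21.7 to 40.8 CPM in controls and from 22.1 through 24.3 to 31.2 CPM after ELS. H2-K1 in Fkbp5 Nex mice ran from 22.9 through 31.1 to 37.5 CPM in controls and from 16.3 through 25.5 to 35.3 CPM after ELS. H2-D1 had group medians between 28.0 and 33.2 CPM. Mouse 74 was the highest of all 24 mice in all 3 genes, with 130.6 CPM of B2m, 40.8 of H2-K1 and 51.6 of H2-D1, although its microglial sum (805.8 CPM) was exceeded by 5 Fkbp5 Nex mice. The same mouse had the highest summed level of 24 interferon-stimulated genes (295.6 CPM, median over mice 183.7), of choroid plexus genes and of meningeal fibroblast genes (307.9, median 165.6), and the part of these in its class I values was not tested. Summed class I was 144.3 ± 41.2 CPM (SD, n = 6) in Fkbp5 lox/lox controls, and 128.6 ± 16.4 CPM (SD, n = 5) without mouse 74. After ELS it was 136.5 ± 15.8 CPM (SD, n = 6) in the same genotype. In Fkbp5 Nex mice it was 153.5 ± 31.4 CPM (SD, n = 6) in controls and 137.5 ± 24.9 CPM (SD, n = 6) after ELS. The ranges of the 4 groups overlapped.

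**Figure D5:**
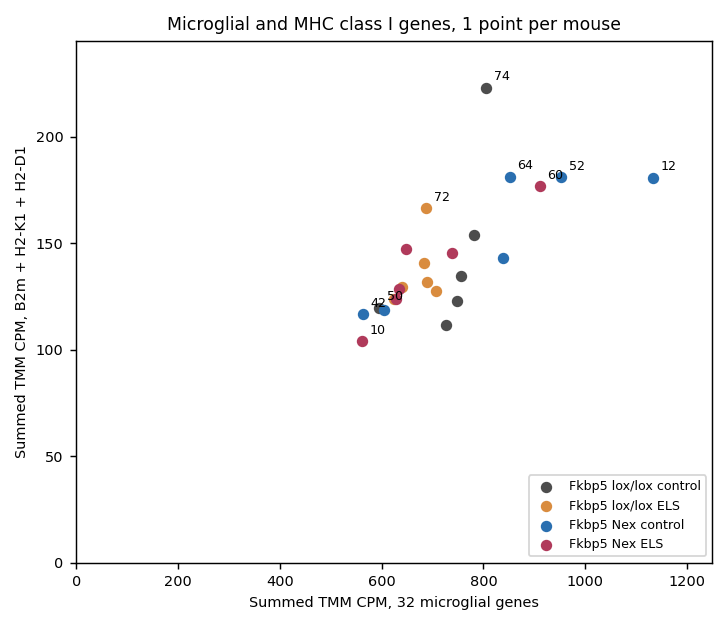
Summed TMM CPM of the 32 microglial genes (x axis) against that of B2m, H2-K1 and H2-D1 (y axis), with 1 point per mouse, coloured by group. Numbers are given at mice 10, 12, 42, 50, 52, 60, 64, 72 and 74. Mouse 12 lies furthest right (1134 CPM) and mouse 74 furthest up (223.0 CPM).

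For genotype, log2 fold changes were -0.01 for B2m (95% confidence interval -0.18 to 0.17), 0.08 for H2-K1 (-0.12 to 0.27) and 0.03 for H2-D1 (-0.21 to 0.27). For ELS they were 0.07 for B2m (-0.12 to 0.26), 0.15 for H2-K1 (-0.06 to 0.36) and 0.13 for H2-D1 (-0.14 to 0.40), and adjusted p was 0.9985 for each in edgeR. With Cd68 at 0.01, these were the 4 members that were higher after ELS. The sign was not stable. Without surrogate variables the ELS values were -0.12, -0.13 and -0.10 for B2m, H2-K1 and H2-D1.

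In the pairwise comparisons, ELS within Fkbp5 lox/lox mice had 0 members called (0.0% of all genes) and 1 at an unadjusted p under 0.05 (4.98% of all genes), and 21 of 35 were lower, with a median log2 fold change of -0.04. ELS within Fkbp5 Nex mice had 0 called (0.0%) and 1 at an unadjusted p under 0.05 (2.76%), and 29 were lower, with a median of -0.09. Genotype in controls had 0 called against 0.074% of all genes and 2 at an unadjusted p under 0.05 against 8.78%, with 33 members higher in Fkbp5 Nex mice (median 0.14). Genotype after ELS had 0 called against 0.0123% and 1 at an unadjusted p under 0.05 against 6.3%, with 30 higher (median 0.06). These comparisons share groups with each other. For the interaction, 0 were called (0.0%) and 0 had an unadjusted p under 0.05 in edgeR (3.95% of all genes) and in DESeq2's Wald test. On the log2 scale, a member's confidence interval reached on median 0.24 above and below its estimate for ELS within Fkbp5 lox/lox mice. For the interaction it reached 0.33. In the typical member, smaller differences would not reach an unadjusted p under 0.05. A call after adjustment over all genes needs a larger difference, so these widths are not the limit of detection, which was not tested. Spi1 for ELS in Fkbp5 Nex mice had -0.56 (confidence interval -0.95 to -0.18), with an adjusted p of 0.9995 in edgeR.

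The number of members at an unadjusted p under 0.05 depended most on the surrogate variables for ELS. Without them all 35 members were lower after ELS, with a median log2 fold change of -0.21, and 13 had an unadjusted p under 0.05, all 13 lower, against 2.42% of all genes lower at that p. None was called, nor was any other gene (0.0%, smallest adjusted p of the members 0.9993 in edgeR). The 13 were C1qa, C1qb, Csf1r, Trem2, Fcgr3, Fcrls, Itgb5, Selplg, Olfml3, Ly86, Ctss, Spi1 and Aif1, with values from -0.38 for Spi1 to -0.19 for Itgb5. Within Fkbp5 Nex mice, 35 were lower (median -0.27), 9 of them at an unadjusted p under 0.05 (2.22% of all genes). Within Fkbp5 lox/lox mice, 34 were lower (median -0.12), 1 of them at that p (1.03% of all genes). Without mouse 12 as well, the ELS count at an unadjusted p under 0.05 went from 13 to 4, all 35 genes remaining lower with a median of -0.14. Without Fkbp5 Nex control mouse 42, the low control, it was 20. The surrogate variables took from 23.1% (Sall1) to 82.9% (P2ry12) of the within-group variance of a member, and the groups explained from 3.31% to 23.1% of the variance of a surrogate variable.

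Genes around the set were read from lists of known roles. Of 29 further microglial genes tested, among them the phagocytic receptor Mertk, 0 were called in any comparison, 21 were higher for genotype (median 0.07) and 20 lower for ELS (median -0.03). Smallest in p among them were Cd33, an inhibitory sialic acid receptor, for genotype (log2 fold change 0.21, SE 0.08, adjusted p = 0.266) and Tgfbr1, a receptor of the TGF-beta signal that keeps microglia in their resting state, for ELS (-0.16, SE 0.05, adjusted p = 0.9985). The 9 tested ligands and checkpoint genes that neurons and glia present to microglia, such as Cx3cl1 and Cd47, had medians of 0.01 for genotype and 0.01 for ELS, with 5 of 9 higher in each. Smallest in p were Cd47, the signal that restrains phagocytosis (0.03 for genotype, SE 0.03), and the fractalkine gene Cx3cl1 (0.07 for ELS, SE 0.04). Of complement genes beyond C1q, 20 of 30 were tested, 13 were higher for genotype (median 0.06) and 11 for ELS (median 0.01), and C6, Cfb, Cfd and Cfi were among 6 with under 10 counts in every mouse. The complement regulator Cd55 had the smallest p for genotype (-0.29, SE 0.09, adjusted p = 0.167 in edgeR), and Csmd2 for ELS (0.09, SE 0.05).

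Peptide loading and class Ib genes (25 tested) had medians of -0.02 for genotype, with H2-T24 the smallest in p (0.15, SE 0.05), and of 0.01 for ELS, with Rfxap, a subunit of a regulator of MHC genes, the smallest (-0.10, SE 0.04). Of 23 interferon-stimulated genes tested, 10 were higher for genotype (median -0.01) and 18 for ELS (median 0.07), whereas without surrogate variables 21 were lower for ELS (median -0.15). Irf9, a subunit of the interferon-activated transcription factor, had -0.13 for genotype (SE 0.06) and Isg15, a ubiquitin-like modifier, 0.32 for ELS (SE 0.14). MHC class II genes (6 tested) had a median of 0.02 for genotype and -0.01 for ELS, and the latter was -0.55 without surrogate variables. H2-Eb1 had 0.14 for genotype (SE 0.17) and Ciita, the master regulator of class II, -0.26 for ELS (SE 0.17). The 18 tested genes of the disease-associated microglial state, such as Lpl and Axl, had medians of 0.03 and -0.03, with Lyz2, lysozyme, at 0.31 for genotype (SE 0.11) and Cd63 at -0.12 for ELS (SE 0.07). The 11 tested cytokine and sensor genes had medians of -0.02 and 0.00, with Ptgs2 at 0.23 for ELS (SE 0.12). The cytokines Il1b, Il6 and Tnf had under 10 counts in every mouse. The endotoxin receptor Tlr4 had the smallest p of these lists for genotype (0.51, SE 0.13, unadjusted p = 0.000587, adjusted p = 0.102 in edgeR). The 5 tested border macrophage genes had medians of 0.07 and 0.06, with F13a1 at 0.38 for genotype (SE 0.15) and Cd163 at 0.23 for ELS (SE 0.16), and the 5 tested blood cell genes 0.17 and 0.25, with the haemoglobin gene Hbb-bt at 0.37 for ELS (SE 0.16). None of these immune genes was called.

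Markers of other cell types also lay to one side for genotype in the model with surrogate variables. In the genotype comparison all 10 astrocyte genes (median 0.12), all 10 endothelial genes (median 0.14) and all 10 oligodendrocyte genes (median 0.13) were higher in Fkbp5 Nex mice, none of them called, beside a median of 0.11 for the 32 microglial genes. The summed levels, which are not adjusted in this way, were less uniform. The astrocyte median was 5649 CPM in Fkbp5 Nex and 5213 CPM in Fkbp5 lox/lox controls, but 4816 and 4971 CPM after ELS. After ELS the medians were 3599 and 3508 CPM for oligodendrocyte genes and 271.2 and 242.4 CPM for endothelial genes, in the same order. The called genes of the lists were all lower in Fkbp5 Nex mice. They were Ttr of the choroid plexus (-3.04, SE 0.44, adjusted p = 0.00124), Neurod6, the gene that carries Cre (-0.90, SE 0.15, adjusted p = 0.00939), and Prox1, Dsp and Npnt of dentate granule neurons (-0.50, -1.09 and -0.70, adjusted p = 0.000481, 0.000481 and 0.000342 in edgeR). For genotype in controls, Ttr, Clic6, Prox1, Dsp and Npnt were called. For ELS, all 10 astrocyte genes were lower (median -0.04), and choroid plexus genes (5 tested) were higher with a median of 0.56, but lower with a median of -0.80 without surrogate variables. The part of tissue composition in the microglial fold changes was not tested.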

How the data were processed

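Hippocampal mRNA libraries of 24 female mice, in 4 groups of 6 given by the sample labels, were analysed. The deposited values are unscaled read counts by gene. Before deposit, adaptor, poly-N and low-quality reads had been removed, read pairs aligned with HISAT2 (2.0.5) and genes counted by the authors' provider with featureCounts (1.5.0-p3). Genome build, annotation and counting strand are not given in the sources used here. No column of another sample was used. The study excluded 1 sample of a larger set after a principal component analysis without naming it, and all 24 samples were used here.

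The 16209 genes for which all 6 mice of some group reached 10 counts were scaled by TMM and tested with edgeR (4.0.16, R 4.3.3) by the quasi-likelihood test, with 4 group means and 5 surrogate variables from svaseq (sva 3.50.0), Benjamini-Hochberg adjustment over all genes and an FDR of 0.02. The study used DESeq2, run here (1.42.0) as an alternative. The fit was tried on simulated data with genotype changes added to some genes. Genes were drawn independently there, so that trial does not cover genes that vary together, as the members do. Levels are TMM CPM, and RPKM uses GENCODE vM21 exon lengths. The labels do not say whether mice of a group shared a litter, and p-values then measure the spread between these mice. A batch is not labelled. Depth was 18347283 to 26555623 counts per mouse, and intervals cover the model's error only.

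Full statistics are given for C1qa, C1qb, C1qc, Csf1r, P2ry12, Tmem119, Trem2, Sall1, Itgb5, Mrc1, B2m, H2-K1 and H2-D1, for any member past the FDR and for the 2 members with the smallest p in each comparison. In related lists the called genes, or else the smallest p, are named. Other names were chosen after their values were seen. The members and lists were chosen with earlier results of these data known. As alternatives, surrogate variables were left out, size factors were taken from DESeq2, the filter was replaced by filterByExpr or dropped, the Wald test of DESeq2 was used, the FDR was set to 0.05, and each mouse was left out, the last also without surrogate variables, which was added after seeing the data. Python 3.11.15 (pandas 2.3.3, numpy 2.4.6, scipy 1.17.1, matplotlib 3.10.9) was used for tables and figures.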

Additional observations from a re-analysis of the deposited data

Results flagged for a closer look

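Single values stood apart from their group in 8 of 148 tests in groups of 6 mice, 140 of them of 1 gene and 8 of the summed microglial or class I level, and all that stood apart were of 1 gene (the gap to the nearest mouse over the group's range exceeded Dixon's 95% critical value), and chance alone flags about 1 in 20 groups. Among the Fkbp5 lox/lox controls, mouse 50 was low in Selplg (25.0 CPM) and Olfml3 (16.0 CPM), and mouse 74 was high in B2m (130.6 CPM). Among the Fkbp5 lox/lox ELS mice, mouse 72 was high in Ptprc (5.88 CPM) and B2m (97.3 CPM). Among the Fkbp5 Nex ELS mice, mouse 60 was high in Tmem119 (28.1 CPM), Laptm5 (36.1 CPM) and Irf8 (7.60 CPM). The mouse with the highest microglial values of all, Fkbp5 Nex control mouse 12, was in none of these, since its group was wide as a whole.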

How the results depend on the processing

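No member passed an FDR of 0.02 or 0.05 under any setting tried. With all mice kept, the sign turned, with no call, for Sall1 for genotype (0.023 without surrogate variables, 0.009 with filterByExpr, 0.024 without a filter), for B2m for genotype (0.018, 0.036 and 0.060 in that order), for B2m for ELS (-0.123 without surrogate variables, -0.013 without a filter) and, without surrogate variables, for H2-K1 (-0.127) and H2-D1 (-0.105) for ELS. The cause was not tested. Of 195 single-gene values under such settings, 185 kept their sign and their side of the threshold. With each mouse left out in turn, 58 of 936 turned in sign. For genotype the log2 fold change ran from -0.012 to 0.191 for C1qa, -0.055 to 0.184 for C1qb, -0.018 to 0.205 for C1qc, -0.013 to 0.151 for Csf1r, -0.007 to 0.117 for P2ry12, -0.196 to 0.078 for Tmem119, -0.227 to 0.056 for Sall1, -0.041 to 0.078 for Itgb5, -0.193 to 0.079 for B2m, -0.183 to 0.210 for H2-K1 and -0.365 to 0.090 for H2-D1. For ELS it ran from -0.138 to 0.001 for C1qb, -0.115 to 0.034 for C1qc, -0.061 to 0.054 for Tmem119, -0.090 to 0.060 for Sall1 and -0.022 to 0.168 for B2m, and for genotype in controls from -0.062 to 0.260 for Unc93b1. The lowest genotype values in these ranges came without Fkbp5 Nex control mouse 52, other than that of P2ry12, which came without Fkbp5 lox/lox control mouse 30. The median over the members ran from -0.063 to 0.147 for genotype, -0.106 to -0.016 for ELS, -0.120 to 0.021 and -0.156 to -0.007 for ELS in Fkbp5 lox/lox and Fkbp5 Nex mice, -0.062 to 0.214 and -0.053 to 0.104 for genotype in controls and after ELS, and -0.075 to 0.127 for the interaction. Without surrogate variables, a setting combined with left-out mice after seeing the data, it ran from 0.053 to 0.155, -0.251 to -0.143, -0.169 to -0.088, -0.368 to -0.155 (-0.362 without Fkbp5 Nex control mouse 42, -0.368 without Fkbp5 Nex ELS mouse 60), 0.073 to 0.297, -0.076 to 0.079 and 0.051 to 0.258 in the same order. Called genes of the related lists numbered 5 for genotype and 5 for genotype in controls. They numbered 0 and 0 without surrogate variables, 3 and 3 with filterByExpr, 11 and 10 with DESeq2's Wald test, which also called 1 for ELS in Fkbp5 lox/lox mice, and 3 for genotype in controls without a filter. With each mouse left out they ran from 0 to 7 and from 0 to 5, and from 0 to 1 for ELS and for ELS in Fkbp5 Nex mice (1 without Fkbp5 lox/lox ELS mouse 68). Without surrogate variables as well, they ran from 0 to 1 for genotype and were 0 for genotype in controls. No paired analysis was possible because the mouse numbers are unique and no number is shared between groups. The low counts of Cd14, Mrc1 and Spi1 limit what could be detected in them.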
